A study of Mus musculus with 6 samples.

Results

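The genes described here are 10 members of the myosin light chain family and its kinases, with 12 probes among the 39429 on the array and among 20659 genes named there. They are the essential light chain genes Myl1, Myl3, Myl4, Myl6 and Myl6b, the regulatory light chain genes Myl2, Myl7 and Mylpf, and the kinase genes Mylk and Mylk2. Members were listed by family, and every probe whose accession belongs to one of them was taken. The list was selected on values of this same comparison, namely the log2 signals of the si-NC arrays and the log2 changes in si-lncMGPF, so what follows is a description and no test is read from it. Not all members belong to the sarcomere: Myl6 and Mylk serve mainly non-muscle and smooth muscle myosin.

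A sarcomeric myosin heavy chain carries 1 essential and 1 regulatory light chain on its lever arm, and the isoforms fitted there differ between fast, slow, embryonic and cardiac muscle. Light chain kinases, activated when calcium rises, phosphorylate the regulatory chain, which tunes force in striated muscle and switches contraction on in smooth muscle. Differentiating myoblasts begin to make sarcomeric light chains as they fuse into myotubes.

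The samples were 6 RNA preparations of C2C12, an established line of mouse myoblasts that fuse into myotubes when induced to differentiate. All cells had received an siRNA and were differentiated for 2 days. In 3 samples the siRNA was the comparison reagent si-NC, and in 3 it was si-lncMGPF, directed against the long noncoding RNA lncMGPF. The comparison asks which genes change with that knockdown. No probe carried the name of lncMGPF, so its level was not checked here. Whether the replicates came from separate cultures is not given in the labels, so errors measure the spread between these preparations alone and may be technical. Values of a group are always listed in the order of replicates 1, 2 and 3.

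Each sample was read on a 1-colour array. Signals below are log2 of the processed signal minus log2 of that array's 75th percentile, so a value of 0 means a probe as bright as that percentile. The percentile lay between 688.2 and 930.7 intensity units for si-NC and between 492.1 and 923 for si-lncMGPF. By the scan identifiers, slide 1 held all of si-NC together with replicate 1 of si-lncMGPF, and slide 2 held the remaining pair. Both slide 2 arrays stood apart, with 56.93% and 57.3% of probes well above background against 64.13% to 65.28% on slide 1. Their negative control spots read 27.23 and 32.49 units above local background, against 12.72 to 13.79 on slide 1. Each member's change is therefore given over all arrays, within slide 1 (si-lncMGPF replicate 1 against the si-NC arrays) and for slide 2, also set against si-NC. All 8 skeletal muscle markers, among them Myog and Ckm, were well above background on every array. Brightness depends on the probe's own sequence, so no order of level between genes is given.

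The start regions of the genes on which the results turn are shown as context for the changes in their transcripts. RefSeq on build GRCm38.p6 gave windows for 9 of the 10 genes, 11 in all, and each sequence below is the 250 bases before an annotated start, read 5′ to 3′ on the gene's strand. Capitals mark every match, on either strand, to the E-box CANNTG (the site of MyoD-type factors), the MEF2 site, the CArG box (the site of serum response factor) or the M-CAT element CATTCC (the site of TEAD factors). The windows are of Myl2, with its pair of annotated starts, of Myl3, whose product joins Myl2 on slow and ventricular myosin, and of Mylpf, the fast-muscle counterpart of Myl2.
Myl2, first start, chr5:122092474-122092723, + strand: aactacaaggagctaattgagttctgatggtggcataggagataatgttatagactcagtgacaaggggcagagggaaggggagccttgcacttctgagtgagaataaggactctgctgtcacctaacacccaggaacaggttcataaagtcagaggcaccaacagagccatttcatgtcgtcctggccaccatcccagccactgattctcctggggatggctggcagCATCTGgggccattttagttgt
Myl2, second start, chr5:122092939-122093188, + strand: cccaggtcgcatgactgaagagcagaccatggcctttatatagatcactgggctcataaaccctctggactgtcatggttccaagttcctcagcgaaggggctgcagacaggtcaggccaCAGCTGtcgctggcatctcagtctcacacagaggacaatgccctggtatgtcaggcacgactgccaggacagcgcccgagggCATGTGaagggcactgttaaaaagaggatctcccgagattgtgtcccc
Myl3, chr9:110763428-110763677, + strand: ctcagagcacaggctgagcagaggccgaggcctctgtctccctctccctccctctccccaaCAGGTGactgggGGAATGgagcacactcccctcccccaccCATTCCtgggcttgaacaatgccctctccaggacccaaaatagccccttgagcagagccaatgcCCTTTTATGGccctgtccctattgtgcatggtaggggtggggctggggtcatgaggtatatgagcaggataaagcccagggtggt
Mylpf, chr7:127211358-127211607, + strand: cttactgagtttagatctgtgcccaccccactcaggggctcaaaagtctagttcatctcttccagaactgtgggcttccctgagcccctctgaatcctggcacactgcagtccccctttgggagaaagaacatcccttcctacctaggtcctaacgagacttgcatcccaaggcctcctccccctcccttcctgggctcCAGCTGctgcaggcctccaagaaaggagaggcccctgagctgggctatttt

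The Myl2 windows held 1 and 2 E-boxes and no match to the other motifs, and the Mylpf window held 1 E-box. The Myl3 window held 1 E-box, 1 CArG box and 2 M-CAT elements. Over the 11 windows of the family, 8 held an E-box, 3 a CArG box (Myl3, Myl6 and Myl7), 4 an M-CAT element (Myl1, Myl3, Myl7 and Mylk) and 0 a MEF2 site. Among all 32851 windows of the same length, 66.2% held an E-box, 1.47% a CArG box, 12.6% an M-CAT element and 2.92% a MEF2 site. None of the matches overlapped another in the windows shown. These are matches of letters in a short window, not measured binding.

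Among the regulatory light chains, Myl2 alone stood far from si-NC in the knockdown arrays, and it was lower on every one of them. Myl2 encodes the regulatory chain of slow-twitch and ventricular myosin. Its processed signal was 176.3, 153.1 and 152.7 intensity units in si-NC. In si-lncMGPF the signal was 58.5, 43.9 and 37.7. Scaled to each array, these are log2 values of -2.40, -2.17 and -2.31 in si-NC and -3.98, -3.73 and -3.71 in si-lncMGPF. The groups did not overlap, and their distance was far wider than the spread within either. Mean signal was -2.29 ± 0.12 in si-NC and -3.80 ± 0.15 in si-lncMGPF (SD, n = 3 each), a log2 change of -1.51 (SE 0.12, 95% interval -1.79 to -1.24), or 2.85-fold lower. Within slide 1 the log2 change was -1.69, and on slide 2 it was -1.42. Of 14265 tested named genes, 29 had a log2 change at or below that of Myl2, itself included, and 14 of these were well above background on all arrays.

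Mylpf and Myl7, the other regulatory chains, gave no such picture. Mylpf encodes the regulatory chain of fast-twitch muscle. Its log2 signal was -3.15, -3.46 and -3.47 in si-NC and -3.17, -3.50 and -3.13 in si-lncMGPF. The groups overlapped, with a log2 change of 0.09 (SE 0.14, 95% interval -0.25 to 0.44). Within slide 1 Mylpf had 0.19 and on slide 2 it had 0.04. Myl7, the atrial regulatory chain, was not well above background on any of the 6 arrays, with signals between 3.1 and 10.9 intensity units, so it was not tested and has no fold.

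**Figure D1:**
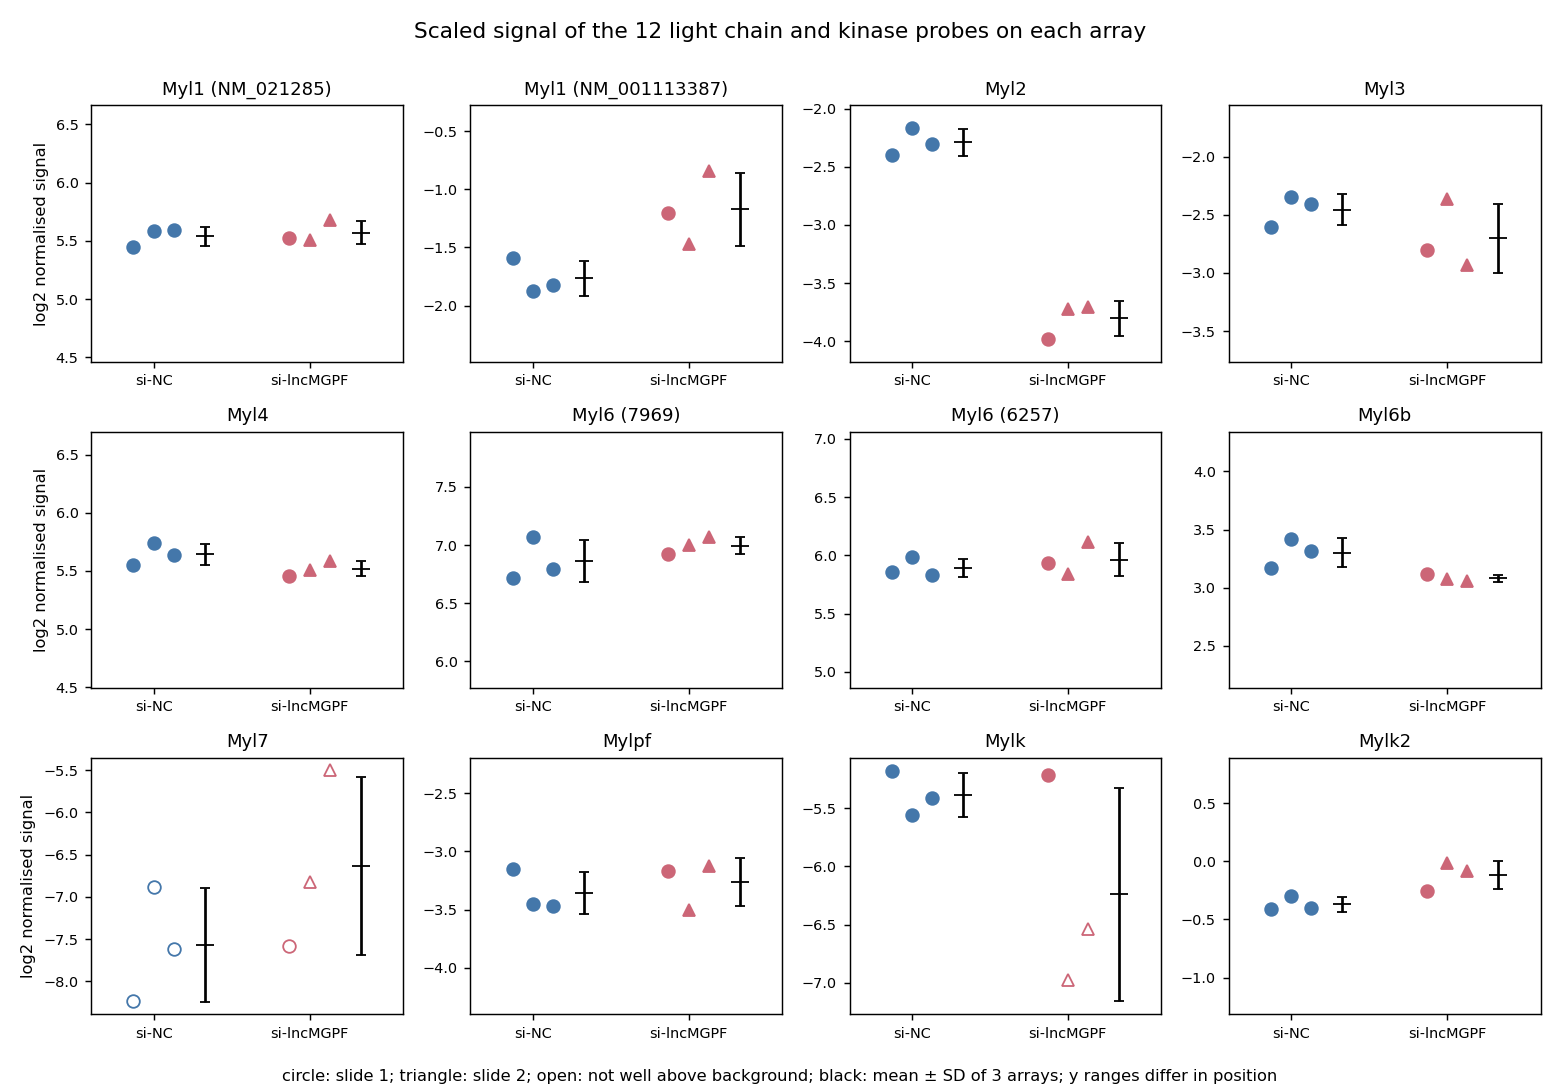
Log2 normalised signal (vertical axis) of each of the 12 probes on each array, by group (horizontal axis). Circles are slide 1 arrays, triangles slide 2 arrays, open symbols are not well above background, and black bars are the mean ± SD of 3 arrays; Myl6 probes are named by the last digits of their identifier. The 3 si-lncMGPF points of Myl2 lie between -3.98 and -3.71, below the si-NC points at -2.40 to -2.17, and Mylk is low on the 2 slide 2 arrays alone.

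The essential light chains changed little, apart from 1 of the 2 probes of Myl1. Myl1 encodes the fast-muscle essential chains MLC1f and MLC3f, made from separate promoters of the gene. The probe with accession NM_021285 read 5.44, 5.58 and 5.59 in si-NC, and 5.52, 5.50 and 5.68 in si-lncMGPF. The groups overlapped, and the log2 change was 0.03 (SE 0.10, 95% interval -0.20 to 0.26). A second probe, with accession NM_001113387, another transcript of the gene, read -1.59, -1.88 and -1.82 in si-NC and -1.20, -1.47 and -0.85 in si-lncMGPF. Here every si-lncMGPF array was above every si-NC array, with a log2 change of 0.59 (SE 0.17, 95% interval 0.18 to 1.0), or 1.51-fold, and it did not pass the threshold over all probes. The change was 0.56 within slide 1 and 0.60 on slide 2. Probe sequences were not used here, so whether the second probe reads that transcript alone was not tested.

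Myl3, the essential chain of slow and ventricular myosin, read -2.60, -2.35 and -2.41 in si-NC. In si-lncMGPF it read -2.81, -2.37 and -2.93. Replicate 2 of si-lncMGPF lay among the si-NC arrays, so the groups overlapped, with a log2 change of -0.25 (SE 0.16, 95% interval -0.64 to 0.15). Myl3 had -0.35 within slide 1 and -0.19 on slide 2. Myl4, the essential chain of atrial and embryonic muscle, read 5.55, 5.74 and 5.64 in si-NC and 5.46, 5.51 and 5.59 in si-lncMGPF. The groups overlapped, with a log2 change of -0.12 (SE 0.09, 95% interval -0.34 to 0.10), -0.18 within slide 1 and -0.09 on slide 2.

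Myl6b, an essential chain of slow muscle and non-muscle cells, read 3.17, 3.42 and 3.32 in si-NC and 3.12, 3.07 and 3.06 in si-lncMGPF. Every si-lncMGPF array was below every si-NC array, and the nearest pair of values was 3.17 and 3.12. The log2 change was -0.22 (SE 0.10, 95% interval -0.45 to 0.01), with -0.18 within slide 1 and -0.24 on slide 2. Myl6, the essential chain of non-muscle and smooth muscle myosin, was read by 2 probes with the same accession. Their log2 changes were 0.13 (SE 0.12, 95% interval -0.15 to 0.41) and 0.07 (SE 0.11, 95% interval -0.18 to 0.32), and the groups overlapped on both. Within slide 1 they had 0.06 and 0.05, and on slide 2 0.17 and 0.09. Over the arrays the first probe spanned 6.72 to 7.07 in si-NC and 6.92 to 7.07 in si-lncMGPF, and the second 5.83 to 5.98 and 5.84 to 6.11.

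The kinases differed from each other across slides. Mylk2, the kinase of skeletal muscle, read -0.41, -0.30 and -0.41 in si-NC and -0.25, -0.02 and -0.08 in si-lncMGPF. Its groups did not overlap, and the log2 change was 0.25 (SE 0.10, 95% interval 0.02 to 0.49), with 0.12 within slide 1 and 0.32 on slide 2. Mylk, the kinase of smooth muscle and non-muscle cells, read -5.18, -5.56 and -5.41 in si-NC. In si-lncMGPF it read -5.21 on replicate 1, which lies within the si-NC range, and -6.97 and -6.53 on replicates 2 and 3, where it was not well above background. The log2 change of -0.86 (SE 0.42, 95% interval -1.87 to 0.16) joined 0.17 within slide 1 and -1.37 on slide 2. Those arrays had the higher negative control signal, whose part in the value was not tested.

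In the fit over all 24661 tested probes with limma and Benjamini-Hochberg adjustment, 26 passed the threshold of 0.05, 0.105% of them. Of the 11 tested probes of the family 1 passed, that of Myl2, where 0.0770% of all tested probes were called lower and 0.0284% higher; since the family was selected on this contrast, nothing is read from these shares. Groups did not overlap for 4 of the 11, 2 higher (the second Myl1 probe and Mylk2) and 2 lower (Myl2 and Myl6b), where 23.0% of all tested probes did not overlap, 9.63% higher and 13.4% lower. Leaving out any 1 of si-NC replicates 1 to 3, or replicate 2 or 3 of si-lncMGPF, ended the call of Myl2, with log2 changes of -1.57, -1.45, -1.52, -1.55 and -1.56. After normexp background correction with an offset of 50 intensity units Myl2 was still called, with a log2 change of -0.87. An offset of that size makes log2 changes of probes as dim as that of Myl2 smaller by construction.

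**Figure D2:**
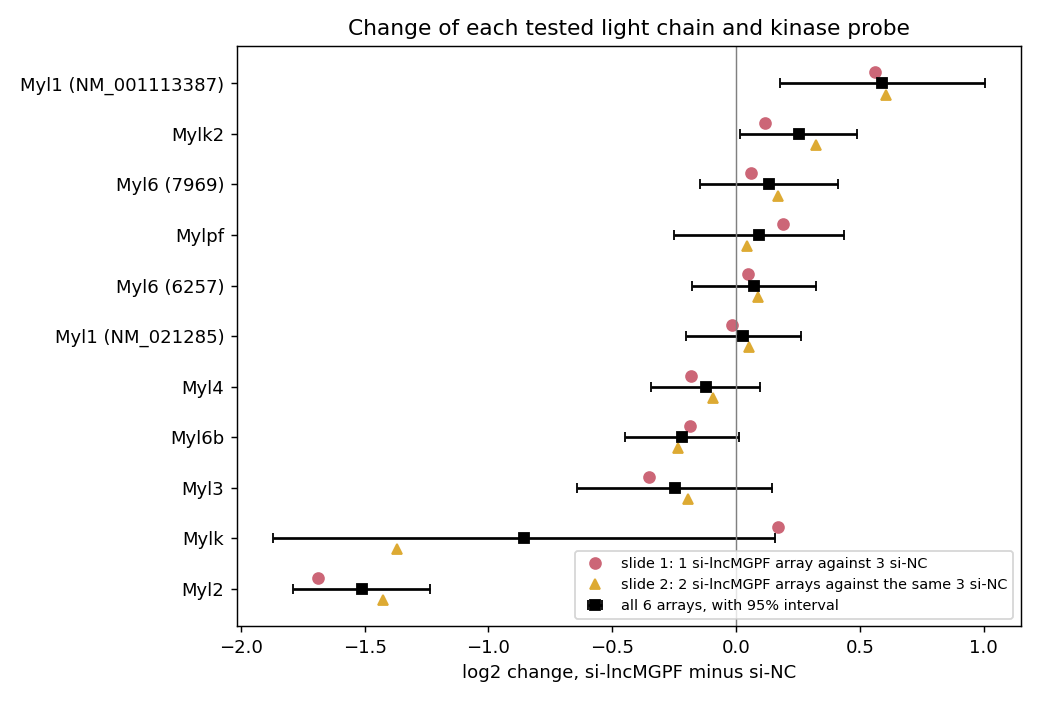
Log2 change, si-lncMGPF minus si-NC (horizontal axis), of the 11 tested probes (vertical axis). Black squares with bars are the estimate over 6 arrays with its 95% interval, circles the change within slide 1, and triangles that of slide 2 against si-NC; Myl2 has -1.51, with -1.69 and -1.42, while Mylk has 0.17 on slide 1 and -1.37 on slide 2.

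Ratios between probes of 1 array do not depend on the scaling between arrays, and they show whether members changed unequally. The ratio of Myl2 to Myl3, the regulatory and essential chains of the same slow myosin, was set against its si-NC mean on the log2 scale. It was 0.04, 0.02 and -0.06 in si-NC and -1.34, -1.52 and -0.94 in si-lncMGPF. The mean in si-lncMGPF was -1.26 ± 0.30 (SD, n = 3), so Myl2 was 2.4-fold lower relative to Myl3. Relative to Mylpf, Myl2 was lower by a log2 ratio of -1.60 ± 0.30 (SD, n = 3), with si-NC arrays between -0.32 and 0.22 and si-lncMGPF arrays between -1.88 and -1.29. Relative to Myh7, the slow myosin heavy chain that carries Myl2, the ratio was -0.88 ± 0.17 (SD, n = 3), with si-lncMGPF arrays between -1.07 and -0.76. Groups did not overlap for any of these 3 ratios. For the second Myl1 probe over the first the ratio was 0.56 ± 0.22 (SD, n = 3), between 0.33 and 0.77 in si-lncMGPF and between -0.16 and 0.27 in si-NC. The ratio of Mylk2 to Mylk overlapped, at -0.05 on si-lncMGPF replicate 1 against 1.95 and 1.44 on the slide 2 arrays.

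**Figure D3:**
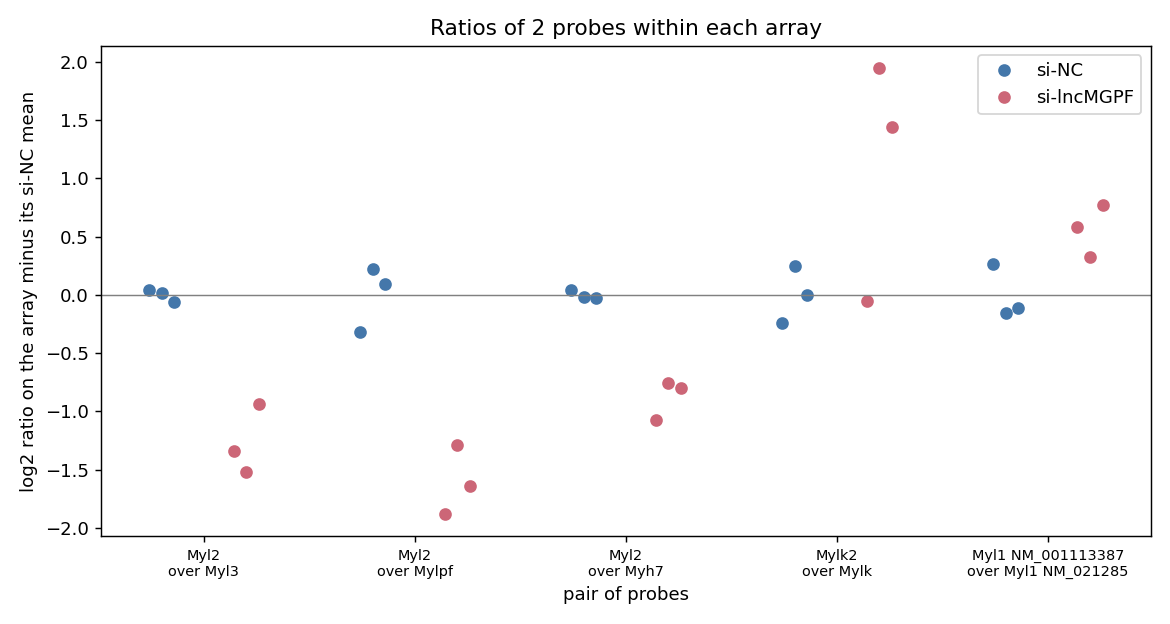
Log2 ratio of 2 probes on the same array minus its si-NC mean (vertical axis) for 5 pairs of probes (horizontal axis), each point an array. The 3 ratios with Myl2 on top are lower on every si-lncMGPF array, from -1.88 to -0.76, and the ratio of the Myl1 probes is higher, from 0.33 to 0.77.

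Genes that work beside the light chains are given from lists drawn up with earlier results known, with 1 probe a gene. Of the 9 tested family genes 4 had a positive and 5 a negative log2 change, with a median of -0.12. All 14265 tested named genes had a median of 0.02 and 6563 negative changes. Their median was -0.07 within slide 1 and 0.06 on slide 2. Sarcomeric myosin heavy chains, the partners of the light chains, were negative in 8 of 8 tested genes, with a median of -0.48. None passed the threshold, and 6 of the 8 were well above background on all arrays. Myh2 and Myh7b entered the test through si-NC alone, the group where they were higher, so the count of 8 depends on the filter. Myh7 had -0.64 (SE 0.10), with -0.61 within slide 1, and Myh8, the perinatal heavy chain, had -0.69 (SE 0.21), with -0.25 within slide 1. The heavy chain median was -0.20 within slide 1, -0.55 on slide 2 and -0.28 without si-lncMGPF replicate 2. Heavy chain genes are close in sequence, so their probes may share signal.

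A list of other light chain genes had 4 tested members, 3 of them light chains outside the sarcomere and 1, Mylip, a ubiquitin ligase gene. Myl12a and Myl12b, regulatory chains of non-muscle myosin, had 0.14 (SE 0.13) and 0.12 (SE 0.10), with -0.10 and -0.01 within slide 1. Myl9, the regulatory chain of smooth muscle, had -0.57 (SE 0.13), with -0.80 within slide 1 and -0.45 on slide 2. Mylip had 0.11 (SE 0.10). The median of the list was 0.11 over all arrays and -0.06 within slide 1. That of all tested named genes changed sign likewise, from 0.02 to -0.07. Among 21 tested genes of light chain phosphorylation, which include those of myosin phosphatase, 9 were positive and 12 negative, and 0 passed the threshold. Their median was -0.06, against -0.20 within slide 1, 0.04 without si-lncMGPF replicate 1 and 0.07 with array weights. All tested named genes had medians of -0.07, 0.06 and 0.05 in the latter settings, with the same signs. No direction is read for the list. The largest negative changes above background on all arrays were those of Camk2b (-0.38, SE 0.11, and -0.48 within slide 1) and the phosphatase subunit gene Ppp1r12c (-0.26, SE 0.08, and -0.25 within slide 1). Camk2g had 0.15 (SE 0.15), but -0.17 within slide 1. Among 15 tested genes of myosin assembly and binding 4 were positive and 11 negative, with a median of -0.11 (-0.14 within slide 1) and 0 past the threshold. The myosin-binding protein gene Mybpc2 had -0.56 (SE 0.16) and the titin gene Ttn -0.38 (SE 0.10), with -0.54 and -0.50 within slide 1. Trim63, a ubiquitin ligase gene of the sarcomere, had 0.26 (SE 0.17). Smyd1 had 0.07 (SE 0.11), with 0.24 within slide 1 and -0.02 on slide 2. A dimmer probe of Smyd1 had -1.05 and 1 of Ttn had -1.41.

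Myl2, Myl3 and Myh7 are known as slow muscle genes, so other genes of fibre type were set beside them. Of 9 slow muscle genes tested, with Myh7 among them, 8 were negative (median -0.07), and of 10 fast muscle genes 9 were negative (median -0.09), with 0 past the threshold in either. Myh2, among the negative fast genes, entered the test through si-NC alone. The fast genes Myh4 and Pvalb had -0.60 (SE 0.11) and -0.60 (SE 0.16), both lower without overlap of the groups. Within slide 1 they had -0.58 and -0.89. The fast gene with a positive change was Atp2a1, at 0.05 (SE 0.24) with overlap. The slow troponin genes Tnnc1, Tnni1 and Tnnt1 had -0.07, -0.05 and -0.06, each with overlap of the groups. Atp2a2, the slow calcium pump, had -0.48 on 1 probe and 0.17 on another. Within slide 1 the median was 0.04 for slow and -0.002 for fast genes, and without si-lncMGPF replicate 2 it was 0.06 for slow genes.

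**Figure D4:**
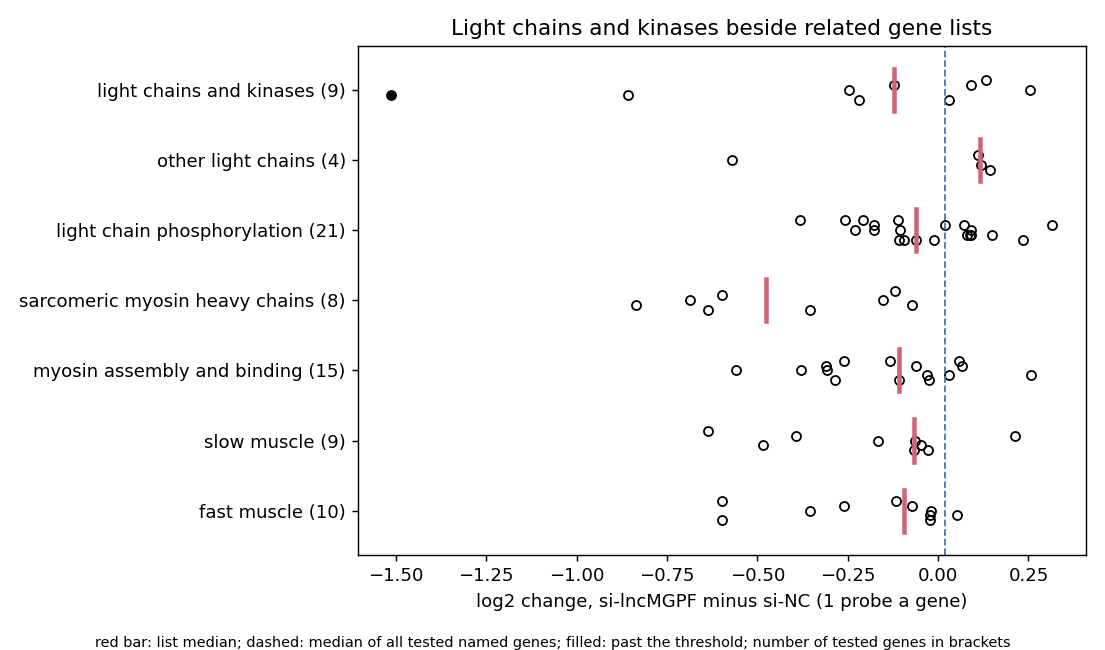
Log2 change, si-lncMGPF minus si-NC (horizontal axis), of each tested gene (points, 1 probe a gene) in the family and 6 related lists (vertical axis). Red bars are list medians, the dashed line is the median of all tested named genes at 0.02, and filled points passed the threshold. Myl2 at -1.51 is the only filled point. All 8 heavy chain genes lie below 0, of which Myh2 and Myh7b entered the test through si-NC alone.

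Bulk RNA cannot tell fewer cells of a type from less RNA per cell. The 8 skeletal muscle markers, with 0 past the threshold and a median of -0.20 (0.05 within slide 1 and -0.08 without si-lncMGPF replicate 2), summed to 89 to 95.1 units of the 75th percentile in si-NC and 71.4 to 90.4 in si-lncMGPF, and their part in the change of Myl2 was not tested. Myl2 is also a heart gene, and of 8 further cardiac markers 6 were tested, with 0 past the threshold and a median of -0.13. Hand2 and Tbx5 were not well above background on any array. The summed signal of the cardiac list, in units of the 75th percentile, was 1.97 to 2.16 in si-NC and 1.73 to 2.26 in si-lncMGPF. Smooth muscle markers, with 5 of 7 tested and Myh11 and Lmod1 not above background on any array, summed to 196 to 244 and 180 to 232. Their median was -0.34, with -0.61 within slide 1. Of the 5, 3 were lower without overlap of the groups, namely Actg2 (-0.48, SE 0.10), Cnn1 (-0.41, SE 0.13) and Tagln (-0.34, SE 0.14). Among all tested probes 13.4% were lower without overlap, as were 5 of 8 tested heavy chain genes and 5 of 15 of myosin assembly and binding. Acta2, the brightest of the list at 7.03 in si-NC, had 0.08 (SE 0.15) and Smtn -0.09 (SE 0.13), both with overlap. None passed the threshold, and the part of these markers in the changes of Myl2 and Myl9 was not tested. For fibroblast markers, with 4 of 6 tested, the sums were 75.6 to 90.5 and 73.1 to 86.8. Endothelial markers, with 2 of 4 tested and Cdh5 and Tek not above background on any array, summed to 1.25 to 1.65 and 1.49 to 1.62. Leukocyte markers, 3 of 4 tested, summed to 2.92 to 3.54 in si-NC and 1.37 to 2.43 in si-lncMGPF. Itgam, the brightest of them at 1.55 in si-NC, makes up most of that sum. It had -1.10 on its brightest probe (-0.47 within slide 1, -1.41 on slide 2) and -0.25 and -0.40 on 2 others. Ptprc had -0.13 and Csf1r -0.075, each with overlap of the groups. A dimmer Csf1r probe had 0.41 without overlap. The part of the leukocyte markers in the change of Myl2 was not tested.

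The genes whose pattern over the 6 arrays lay nearest to that of Myl2, by the root mean square difference of centred log2 values among 12386 named genes, were Clu, Try4, Gzme, Atp13a4 and Ms4a8a. Their distances were 0.06, 0.10, 0.15, 0.18 and 0.18 on the log2 scale. Their log2 changes were -1.43, -1.34, -1.32, -1.67 and -1.19, and all but Ms4a8a passed the threshold. With 2 groups and a change this large, the nearest patterns are by construction those of genes lowered to a similar extent. None of these genes encodes a sarcomere protein. For Mylk2 the nearest were Tbc1d4, Zfp979, the cardiac actin gene Actc1, Mkrn1 and Ttpal, all at 0.03. Their log2 changes were 0.25, 0.24, 0.27, 0.24 and 0.23. The nearest patterns to Myl6, the non-muscle chain, were the ribosomal protein genes Rpl7a and Rpl8, both at 0.03. For Myl6b the nearest were Cxcl16, Ehmt1, Hs6st1, Musk and Cxcl13, at distances of 0.024 to 0.025. Musk, the receptor kinase of the neuromuscular junction, had a log2 change of -0.18.

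**Figure D5:**
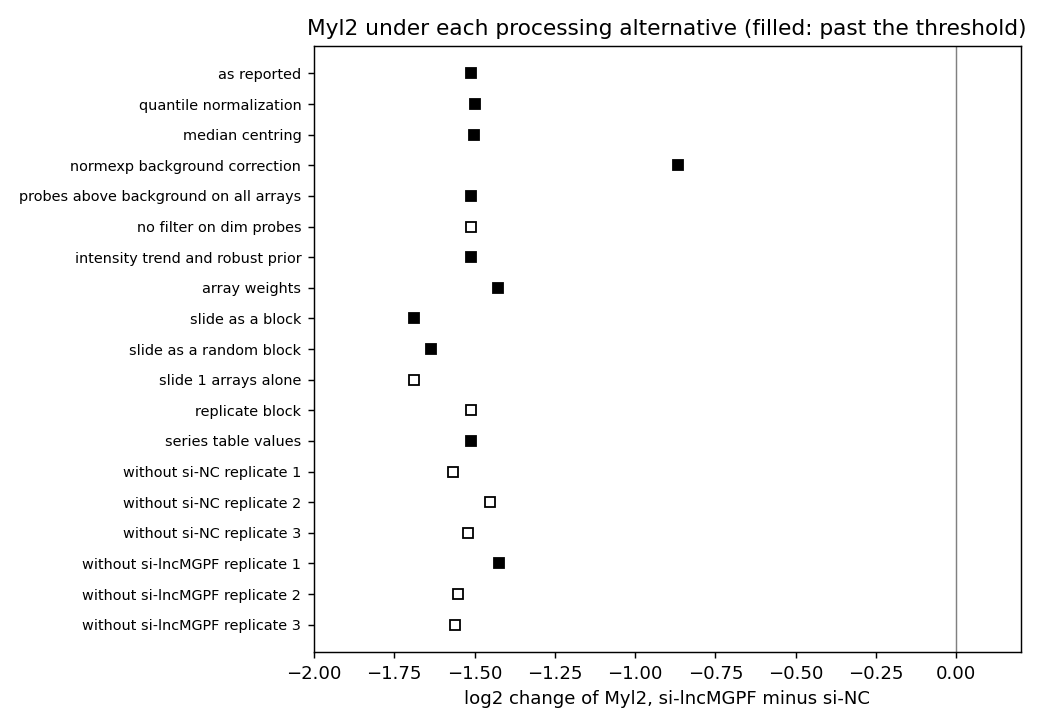
Log2 change of Myl2, si-lncMGPF minus si-NC (horizontal axis), as reported and under 18 processing alternatives (vertical axis), filled where the probe passed the threshold over all probes. Every value is negative, from -1.69 to -0.87, and the probe passed in 10 of the 18. Some alternatives leave the estimate unchanged by construction. The value of -0.87 came with the normexp offset of 50 intensity units, which shrinks changes of dim probes.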

How the data were processed

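Total RNA of 6 C2C12 samples was labelled with Cy3 and read on 1-colour Agilent arrays, per the labels. The authors deposited intensity values on a linear scale, the processed signal of Feature Extraction 11.0.1.1, per the file headers. Which corrections lie behind that signal was not stated in these sources. Its 75th percentile differed between arrays. On every array their series table held the same values as that signal (44397 of 44397 spots). The well-above-background and outlier flags were used as deposited by the authors. Outlier spots were left out (117 to 134 per array) and 0 spots were saturated.

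Log2 processed signals were set against each array's 75th percentile over non-control spots and averaged by probe. Probes entered the test (24661 of 39429) where at least 1 group had them well above background throughout. Accessions, without versions, were matched to a RefSeq table of GRCm38.p6, another build than the array's, for names only. That named 27234 probes. The fit used lmFit and eBayes of limma 3.58.1 (R 4.3.3) with no covariate and was Benjamini-Hochberg adjusted over all tested probes. The brightest tested probe stood for a gene in lists. The fit was tested on simulated data, drawn with independent noise on each array and no slide effect, so that test does not cover the slides here. The number of arrays limits precision.

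The members and lists were chosen with earlier results of these data known. Named are all member probes, the genes of each list with the largest changes (1 of them is not reported here), and the genes nearest to a member in pattern; the troponin genes, the other probes and the choice among near genes were picked after their values were seen. A comparison of the light chain proteins was planned and not made here, and promoter windows were kept to the bases before the start. Normexp was planned on mean spot signals and ran on the median spot signals, with an offset of 50 intensity units. Figures were drawn with matplotlib 3.10.9.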

Additional observations from a re-analysis of the deposited data

How the results depend on the processing

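The sign of the log2 change of Myl2, Myl3, Myl4, Myl6b, Mylpf, Mylk2 and the second Myl1 probe was the same in all 18 alternatives. It changed for Mylk in 2 of 17 (0.17 with slide as a block and on slide 1 alone), for the first Myl1 probe in 7 of 19 and for the Myl6 probes in 1 each. The filters on dim probes, the intensity trend with a robust prior, the replicate block and the series table values left each fitted estimate unchanged by construction. Slide as a block gave the same estimates as slide 1 alone. The same sign in those alternatives is therefore no separate result. The count of called probes was 26 as reported, 15 with quantile normalization, 10 with slide as a block, 1 on slide 1 alone (8224 at an unadjusted p below 0.05) and 10149 with array weights, which ran from 0.125 to 9.39. It was 0 by limma without a filter on dim probes (5279 at an unadjusted p below 0.05). With the replicate block it was also 0 (4430 at an unadjusted p below 0.05), as was the count of family probes. The labels do not say whether same-numbered samples were paired. Deviations of same-numbered samples correlated at 0.29, 0.45 and -0.07 for replicates 1, 2 and 3. Replicates 1 and 2 correlated best with their own number, and replicate 3 did not, so pairing was not settled here. Of the family 1 probe was called as reported, 0 without a filter or on slide 1 alone, and 6 with array weights. Leaving out 1 array at a time gave 0 to 4105 called probes and 0 to 3 in the family. The 4105 came without si-lncMGPF replicate 1, where group and slide cannot be told apart, and Mylk and Mylk2 were then called beside Myl2. The count of 0 came without any 1 si-NC array and without si-lncMGPF replicate 3 (1877 to 2696 at an unadjusted p below 0.05). The median of the family genes was -0.12, and -0.016 with slide as a block or on slide 1 alone. That of all tested named genes was 0.02, and -0.07 in those settings. Causes were not tested, except that the filter and the left-out arrays change what is fitted by construction. The normexp offset likewise shrinks changes of dim probes by construction. Signal over background limits Mylk, whose probe was not well above background on the slide 2 arrays.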
